A study of Mus musculus with 16 samples.

Results

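The genes described here encode the collagens, the laminins and the integrins, with the matrix proteins Dcn, Bgn, Egfl6, Fn1, Sparc and Nid1. They were chosen by symbol from the 17655 genes listed for preSC, mouse lung cells in a precancerous stage of small cell lung cancer. The rule itself holds no measured difference between the groups, but it was drawn up with earlier results of these data known. Egfl6 and the other named matrix proteins were added outside the symbol pattern. The symbol pattern and the added genes gave 80 listed genes, of which 37 had a mean normalised read count of at least 10 over the 16 samples and are described in full. These 37 comprise 14 of 39 listed collagens, 5 of 9 laminin chains, 12 of 22 integrin subunits, 4 of the 6 added matrix genes, and Itgb1bp1 and Itgb3bp, which carry an integrin symbol but are not subunits.

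RNA was sequenced from 2 groups of 8 samples, to ask what the secreted ligand Wnt5a does to the transcriptome of these cells. Both groups were lung neuroendocrine cells positive for Chga, null for Rb1 and for Trp53, and carrying 1 null allele of Rbl2. The empty group had been infected with a lentivirus without an insert and the Wnt5a group with a lentivirus carrying Wnt5a, and both had been given doxycycline at 1 µg/mL for 48 hours when RNA was taken. Samples 1 to 4 of each group differed by little more than counting noise, as did samples 5 to 8, so they were averaged as libraries A and B and every test rests on 2 libraries per group. The sources used here do not say whether the libraries came from separate cultures or whether each group was 1 clone, so p-values measure the spread between these libraries only.

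Library totals were 30220749 to 35315408 recovered reads. The neuroendocrine identity on the labels was borne out by its markers such as Chga (3007 to 4370 in the 4 libraries). Of these 10 markers Scg2 fell with Wnt5a (log2 difference -0.73, SE 0.09, limma adjusted p = 0.012). It was the 1 marker that limma called (10%, against 2.06% of all genes). By sign 9 markers were lower and 1 higher, against 6095 and 6262 of all genes, and their median log2 difference was -0.12. With a block on the replicate number limma called 4, and with all 16 samples counted separately 7, all lower. Over all genes these 2 fits called 17.0% and 35.4%. Markers of fibroblasts and smooth muscle were near 0: 8 of 10 were listed, and none reached the minimum of 10. The 4 listed endothelial markers summed to at most 5.79 in any library, the leukocyte markers to at most 15.3 and the lung epithelial markers to at most 47.9.

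Collagens are trimeric proteins of the extracellular matrix that form fibrils, sheets or beaded filaments according to type. Laminins are cross-shaped trimers of an alpha, a beta and a gamma chain that, with collagen IV and nidogen, build the basement membrane under epithelia. Integrins are alpha-beta heterodimers in the plasma membrane that bind these proteins and couple them to the actin cytoskeleton.

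Between the groups 3 of the 37 genes passed the test. Egfl6, a secreted matrix protein with EGF repeats, and Itgav, the alpha subunit of the vitronectin receptors, fell in the Wnt5a libraries, and Col11a1, a chain of the minor fibrillar collagen XI, rose. The test was limma on log2(value + 1), at an adjusted p under 0.05. Of the 12357 genes it was run on, it called 254, or 2.06% (1.38% higher and 0.672% lower, 171 and 83 genes). Removing the median of each chromosome, which was -0.17 on chromosome 1, 0.17 on chromosome 11 and 0.36 on chromosome 19, gave 207 genes (118 higher and 89 lower) and the same 3 members.

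The 37 genes were split between the directions. Their median log2 difference was -0.01, against 0.0026 for all genes tested, with 18 genes higher and 19 lower. The median absolute difference was 0.18, against 0.11 for all genes. An unadjusted limma p under 0.05 was found for 10 of the 37, compared with 16.1% of all genes, and both Wnt5a libraries lay outside the range of both empty libraries for 16 of the 37 (8 above and 8 below), compared with 44.2% of all genes. By direction the backgrounds for such separation were 22.7% above and 21.5% below.

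Other tests gave other counts. Among the members edgeR called 3, against 1.99% of all genes, and DESeq2 8, against 4.35%. limma called 8 with a block on the replicate number, against 17.0%, and 13 with all 16 samples counted separately, against 35.4%. The number of members called depended also on the empty libraries: without empty library B it was 11, against 8.89% of all genes, and without empty library A 5, against 3.99%. Without Wnt5a library B it was 2, against 1.12%.

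**Figure D1:**
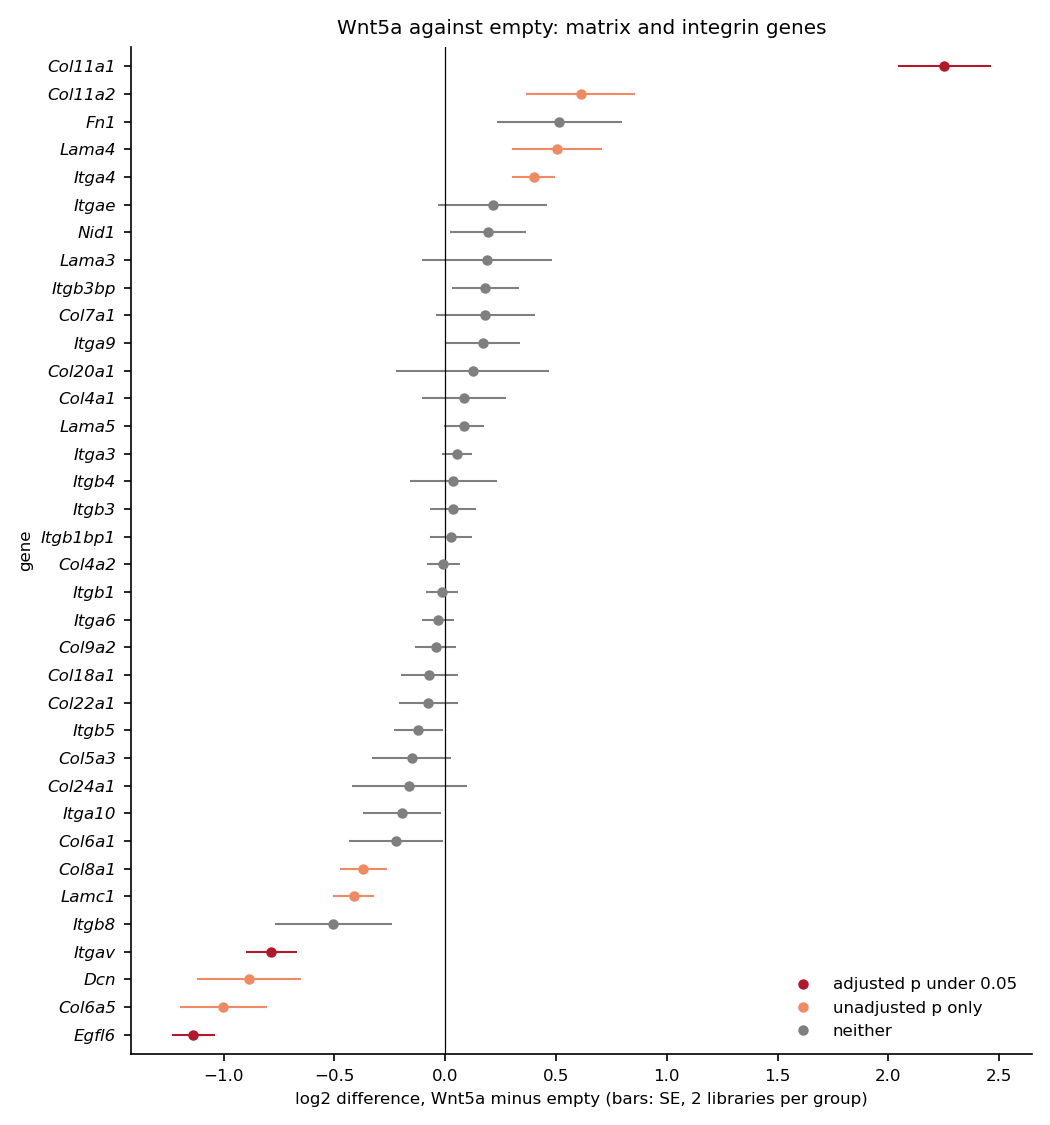
Log2 difference (Wnt5a minus empty) of the genes described, on the horizontal axis, with bars for the standard error from 2 libraries per group; colour gives the limma result. Col11a1 at 2.25 stands to the right and Egfl6 at -1.14 to the left, and most of the other genes lie near 0.

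Egfl6 (X chromosome) had normalised read counts of 537 and 547.5 in empty libraries A and B and of 265 and 229 in Wnt5a libraries A and B. Both Wnt5a libraries lay below both empty libraries, and over the separate samples the highest Wnt5a value (283) was below the lowest empty value (518). The mean was 2.20-fold lower with Wnt5a, a log2 difference of -1.14 (SE 0.10, limma adjusted p = 0.0029). Egfl6 was the most abundant per kb of transcript of the added matrix genes. Because these are bulk samples, fewer cells with a transcript and less of it per cell cannot be told apart, here or below.

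Itgav (chromosome 2) had values of 747 and 609 in empty A and B, against 408 and 375.5 in Wnt5a A and B. Its alpha subunit pairs with several beta subunits to form receptors for vitronectin, fibronectin and latent TGF-beta. The groups did not overlap, and the mean was 1.73-fold lower with Wnt5a, a log2 difference of -0.78 (SE 0.11, limma adjusted p = 0.024). Without Wnt5a library B the call was lost, at -0.72 (limma adjusted p = 0.054), and it was also lost with no filter on low values (limma adjusted p = 0.092) and without the trend in eBayes (limma adjusted p = 0.075).

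Col11a1 (chromosome 3) was low in both groups but rose most. It had 36 and 55 reads in empty A and B, against 249 and 263 reads in Wnt5a A and B, or normalised read counts of 9.93 and 14.0 against 58.5 and 61.7. The lowest Wnt5a sample (47.7) was above the highest empty sample (18.3), with a 5.02-fold higher mean and a log2 difference of 2.25 (SE 0.21, limma adjusted p = 0.0039). Per kb of transcript Col11a1 was at 1.29 and 1.83 in empty A and B, against 7.63 and 8.04 in Wnt5a A and B.

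**Figure D2:**
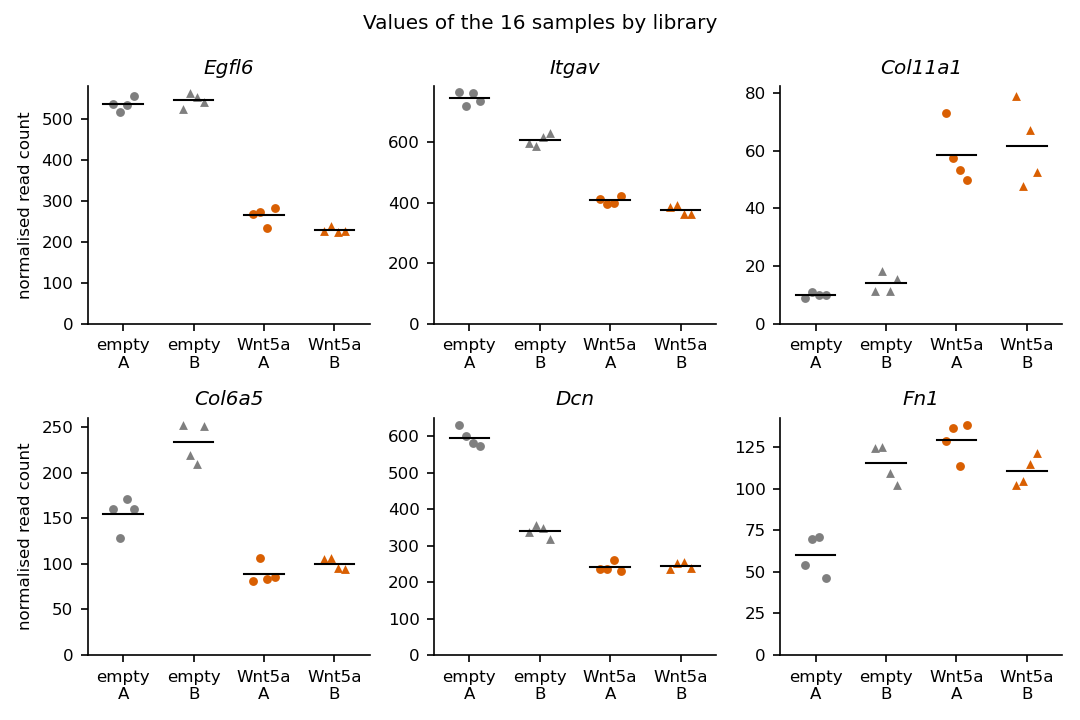
Normalised read count of each of the 16 samples, with a line at the mean of each library, for the 3 genes that passed the test (top) and for Col6a5, Dcn and Fn1 (bottom). The samples of the groups are separate for the top row and for Col6a5 and Dcn and overlap for Fn1, and empty A and empty B stand apart for Itgav and in the bottom row.

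The stretches before the RefSeq start of these 3 genes (GRCm38.p6) are shown because these are the members whose transcripts differed. Each runs 5′ to 3′ on the strand of the gene and covers the 250 bases before the start: chrX:166585717-166585966, minus strand, for Egfl6, chr2:83724147-83724396, plus strand, for Itgav, and chr3:114030290-114030539, plus strand, for Col11a1. Capitals mark the GC box GGGCGG and the CCAAT box CCAAT, on either strand, and the TATA box TATAAA was searched too. A match describes the letters only.
Egfl6: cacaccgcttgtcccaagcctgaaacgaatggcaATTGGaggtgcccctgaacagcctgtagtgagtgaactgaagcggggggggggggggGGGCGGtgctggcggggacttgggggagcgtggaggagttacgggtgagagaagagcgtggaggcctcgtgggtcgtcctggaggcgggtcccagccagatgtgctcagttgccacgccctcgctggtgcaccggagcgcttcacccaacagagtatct
Itgav: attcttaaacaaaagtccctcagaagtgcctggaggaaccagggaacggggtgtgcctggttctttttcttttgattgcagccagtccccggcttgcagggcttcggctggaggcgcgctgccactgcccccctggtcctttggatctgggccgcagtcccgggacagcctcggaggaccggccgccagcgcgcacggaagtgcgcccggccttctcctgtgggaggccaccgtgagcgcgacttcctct
Col11a1: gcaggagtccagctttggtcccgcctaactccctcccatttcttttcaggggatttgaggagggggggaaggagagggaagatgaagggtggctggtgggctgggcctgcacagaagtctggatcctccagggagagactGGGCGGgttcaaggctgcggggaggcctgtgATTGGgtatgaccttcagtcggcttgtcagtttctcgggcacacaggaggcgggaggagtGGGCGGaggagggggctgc

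Egfl6 held 1 GC box and 1 CCAAT box and Col11a1 2 GC boxes and 1 CCAAT box, whereas none of the 3 motifs was found in the Itgav stretch. Over all 32851 RefSeq windows of this length, 32.7% held a GC box, 33.8% a CCAAT box and 12.4% a TATA box. Among the 26 described genes with a window, 16 held a GC box, 10 a CCAAT box and 1 a TATA box. The 32851 windows were not limited to genes that reached the minimum of 10, so these counts lack a like background.

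The listed collagen transcripts of these cells were dominated by 1 gene. Col8a1, a short-chain collagen best known from the sheets under corneal and vascular endothelium, had normalised read counts of 16416 and 14984 in empty A and B, against 13026 and 11323 in Wnt5a A and B. Per kb of the longest annotated transcript it held 78.2% and 75.5% of the signal of the 39 listed collagens in empty A and B. In Wnt5a A and B it held 74.8% and 70.3%. It ranked first of the 37 genes and 81st of 12296 tested genes by level per kb. The Wnt5a libraries were both below the empty libraries, by -0.37 on the log2 scale (SE 0.11), but the difference did not pass the test (limma adjusted p = 0.158). Its usual partner chain, Col8a2, had only 3 to 6 reads in any library.

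Col9a2 was the next most abundant listed collagen, with values of 1592 and 1694 in empty A and B, against 1479 and 1717.5 in Wnt5a A and B. It is 1 of 3 chains of collagen IX, which decorates collagen II fibrils in cartilage. The other chains of that trimer were hardly present: Col9a1 had at most 1 read in any library, and Col9a3 had values of 8.40 to 9.93, under the minimum of 10. The log2 difference of Col9a2 was -0.04 (SE 0.09), and its groups overlapped.

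Collagen IV, the sheet-forming collagen of basement membranes, was represented by Col4a1 and Col4a2. Col4a2 had values of 928 and 905 in empty A and B, against 939 and 885 in Wnt5a A and B, and differed by -0.01 on the log2 scale (SE 0.07). Col4a1 had values of 249 and 369 against 293 and 352, a log2 difference of 0.08 (SE 0.19). Neither gene separated the groups. Col4a1 differed more between libraries A and B than between groups, and was lower in A in both.

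Both genes start from the same place on chromosome 8 and are transcribed in opposite directions. Their RefSeq starts lie so that the first 22 bases of the transcripts overlap (GRCm38.p6, chr8:11312805-11312826), and this shared stretch is printed on the plus strand, the strand of Col4a2.
Col4a1 and Col4a2: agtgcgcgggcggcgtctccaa

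Despite the common start, Col4a2 was 3.83 and 2.52 times as abundant as Col4a1 per kb in empty A and B, and 3.29 and 2.58 times in Wnt5a A and B. In a collagen IV trimer of these chains, Col4a1 usually supplies the larger share. The remaining listed type IV genes, Col4a3, Col4a4 and Col4a5, had at most 2 reads in any library.

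Fibrillar collagens, which form the banded fibrils of connective tissue, were at low levels. Col5a3, a chain of the fibril-regulating collagen V, was the most abundant of them, with values of 187 and 238 in empty A and B, against 222 and 163 in Wnt5a A and B, and the groups overlapped (log2 difference -0.15, SE 0.18). Col11a2, which joins Col11a1 in collagen XI, had values of 17.7 and 28.5 against 33.8 and 35.9. Both Wnt5a libraries were above the empty ones, but the log2 difference of 0.61 (SE 0.25) did not pass the test (limma adjusted p = 0.292).

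Per kb, the ratio of Col11a2 to Col11a1 was 2.25 and 2.58 in empty A and B, against 0.73 and 0.74 in Wnt5a A and B, with no overlap. Col24a1, a further minor fibrillar chain, had values of 19.7 to 32.2 in the 4 libraries and overlapping groups.

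The major fibrillar chains of connective tissue were near the limit of detection. Col3a1 had 1 read in all 4 libraries together and Col1a2 had 2. Col1a1 had 8 and 14 reads in empty A and B, against 1 and 3 in Wnt5a A and B, at or under the floor of 3 reads in the latter, and it was too low to test. Col2a1 had 5 to 9 reads and Col5a1 8 to 10 in each library.

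Collagen VI, which forms beaded microfibrils near basement membranes, was represented by Col6a5 and Col6a1. Col6a5 had values of 155 and 233 in empty A and B, against 89.0 and 100.3 in Wnt5a A and B. The groups did not overlap and the mean was 2.05-fold lower with Wnt5a, but the log2 difference of -1.0 (SE 0.20) missed the threshold (limma adjusted p = 0.062). Col6a1, an obligatory chain of the usual trimer, had values of 36.7 and 36.9 against 37.8 and 26.0. Col6a2, the chain that joins it, had 1 read in all libraries together.

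Col18a1, a basement membrane collagen whose C-terminal fragment is endostatin, had values of 452 and 370.2 in empty A and B, against 358 and 423 in Wnt5a A and B, with overlapping groups. Col22a1, found at tissue junctions, had values of 104 to 129 in the 4 libraries. Col20a1 and Col7a1, the latter the anchoring fibril collagen of skin, were between 8.41 and 15.3. None of these 4 genes passed the test, with log2 differences from -0.08 to 0.18.

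**Figure D3:**
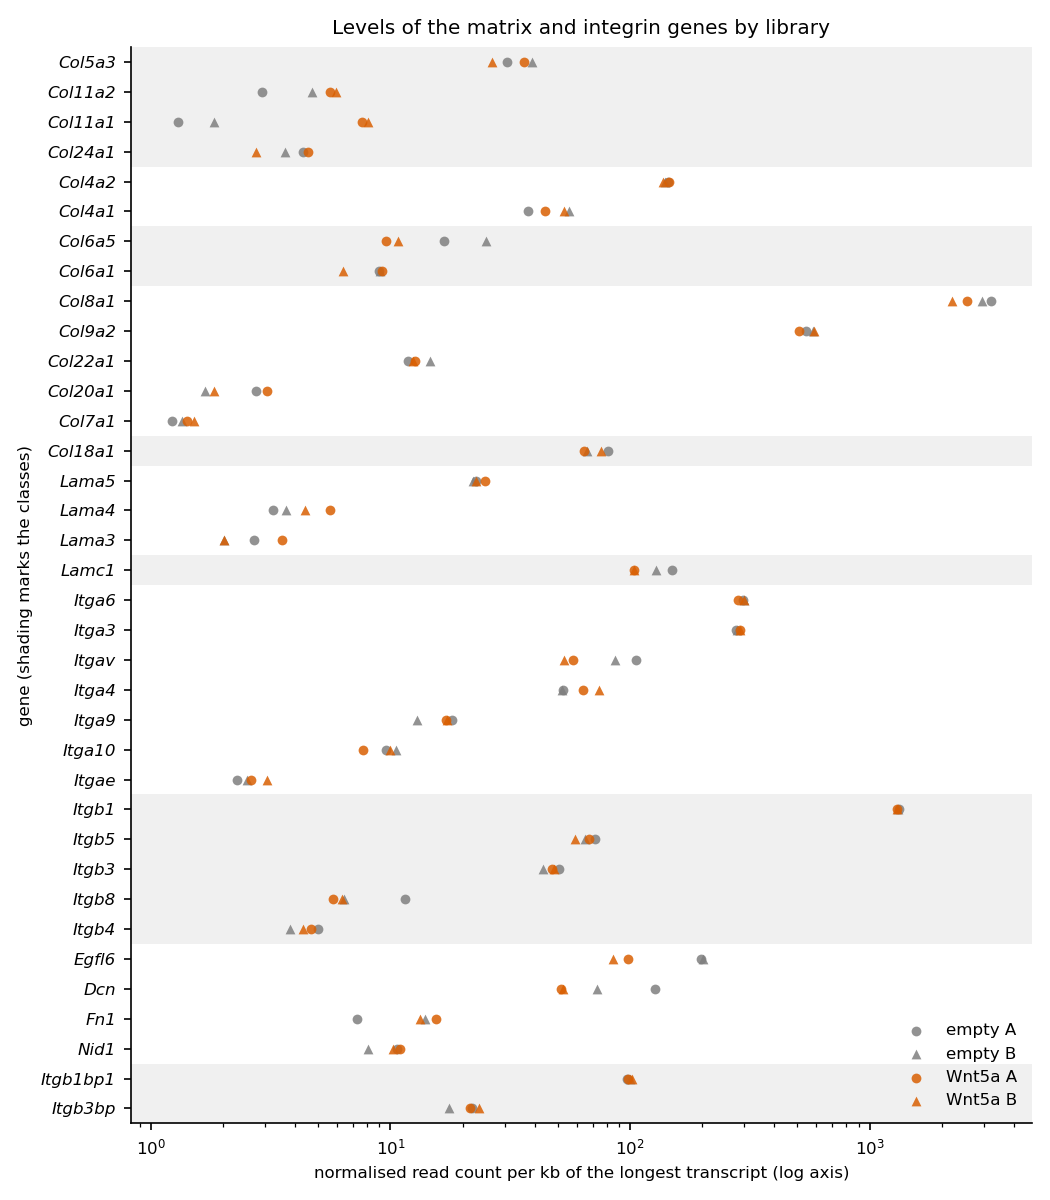
Normalised read count per kb of the longest annotated transcript for the genes described in each of the 4 libraries, on a log axis, ordered by class and by level within it. Col8a1 and Itgb1 are the highest by mean level per kb, at 2728 and 1312, and Col7a1 the lowest, at 1.38.

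Laminin chains were present unevenly. Per kb of transcript Lamc1 was at a mean of 121, above the sum of the listed alpha chains (27.7 to 33.9 in the 4 libraries) and of the beta chains (1.21 to 2.83). The 3 listed beta chains were all under the minimum of 10. Every laminin trimer contains a beta chain, so this class is given in reads: Lamb1 had 22 and 11 reads in empty A and B, against 11 and 10 in Wnt5a A and B, and Lamb3 had 10 to 13 in each.

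Lamb2, the beta chain of laminins at neuromuscular and kidney basement membranes, had 3 reads in empty A and 1 read in empty B, both at or under the floor of 3 reads. In the Wnt5a libraries it had 42 and 13 reads. It was too low to test. In RefSeq order on chromosome 9 its listed neighbour on one side, Ccdc71, had 2 and 0 reads in empty A and B, against 170.0 and 145 in Wnt5a A and B. Beyond Ccdc71, Klhdc8b had 1 and 0 reads in empty A and B, against 139 and 121 in Wnt5a A and B. The gene after it, 1700102P08Rik, had 0 and 0 against 6 and 7 reads. The neighbour of Lamb2 on the other side, Usp19, had 2936 and 2944 against 4335 and 4206 reads. Beyond Usp19, Qars had 1324 and 1382 against 2256 and 2242 reads, and Qrich1 2010 and 2105 against 2855 and 2718. The part of this neighbourhood in the Lamb2 reads was not tested.

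**Figure D4:**
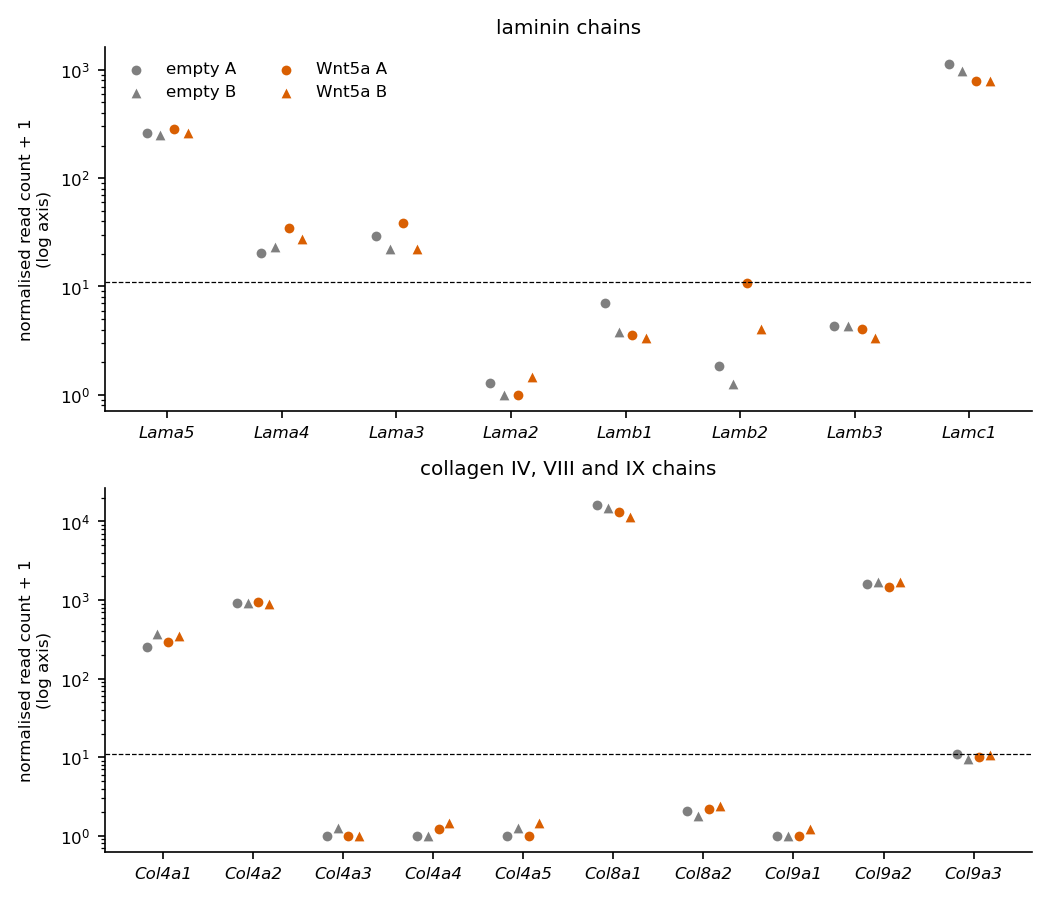
Normalised read count plus 1, on a log axis, of laminin chains (top) and of the chains of collagens IV, VIII and IX (bottom) in the 4 libraries. The dashed line marks the minimum of 10, and the 3 laminin beta chains lie under it while Lamc1 lies far above.

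Lamc1, the gamma chain of most laminins, had values of 1140 and 974 in empty A and B, against 790.4 and 793 in Wnt5a A and B. Both Wnt5a libraries were below both empty libraries, but the log2 difference of -0.41 (SE 0.09) did not pass the test (limma adjusted p = 0.092). Lamc1 is on chromosome 1, which had a median log2 difference of -0.17 between the groups. With chromosome medians removed, Lamc1 was at -0.24 (limma adjusted p = 0.389).

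Lama5, the alpha chain of most epithelial basement membranes, was the main alpha chain, with values of 260 and 251 in empty A and B, against 281.5 and 260.1 in Wnt5a A and B. Lama4 had values of 19.6 and 22.1 against 33.8 and 26.5, and Lama3, an alpha chain of epithelial laminins, had 28.4 and 21.4 against 37.3 and 21.3. All 3 had higher means with Wnt5a, none passed the test, and only Lama3 had overlapping groups. The largest log2 difference was 0.50 for Lama4 (SE 0.20, limma adjusted p = 0.286).

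Of the other matrix genes, Dcn, a small proteoglycan that binds collagen fibrils and TGF-beta, had values of 597 and 340.2 in empty A and B, against 241 and 246 in Wnt5a A and B. Both Wnt5a libraries were below both empty libraries, but the empty libraries differed from each other by 0.81 on the log2 scale. The log2 difference between groups was -0.89 (SE 0.24) and did not pass the test (limma adjusted p = 0.131). Fibroblasts usually carry Dcn. Of the 10 fibroblast and smooth muscle markers 8 were listed, and their summed value was 12.1 and 19.9 in the empty libraries and 12.2 and 9.62 in the others. Dpt, Postn and Acta2 had at most 1 read in any library. Pdgfra was lower in both Wnt5a libraries (17 and 37 reads in empty A and B, 12 and 5 with Wnt5a). The other listed markers, Pdgfrb, Thy1, Tagln and Myh11 among them, overlapped between the groups. Within the empty group Pdgfra was higher in library B and Dcn in library A. The part of such cells in the Dcn values was not tested. Its close relative Bgn had at most 3 reads in any library.

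Fn1 encodes fibronectin, the main ligand of several integrins. It had values of 60.4 and 115 in empty A and B, against 129 and 111 in Wnt5a A and B, so empty library A alone was low and the groups overlapped (log2 difference 0.52, SE 0.28, limma adjusted p = 0.449). Nid1, the nidogen that links laminin to collagen IV, had values of 48.9 to 66.5 and overlapping groups. Sparc, a collagen-binding protein abundant in many stromal cells, had 1 read in all 4 libraries together.

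Among the receptors, Itgb1 was far ahead of the other listed beta subunits. It had values of 5042 and 5016 in empty A and B, against 4983 and 4973 in Wnt5a A and B. Per kb it held 90.5% to 91.7% of the signal of the listed beta subunits. The group difference in log2 was -0.01 (SE 0.07, limma adjusted p = 0.955), although the 2 groups did not overlap by a small margin. Itgb1 pairs with most alpha subunits, including those for laminin and collagen.

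The listed alpha subunits with the highest level were those of the laminin receptors. Itga6 had values of 1276 and 1288 in empty A and B, against 1219 and 1287 in Wnt5a A and B. Itga3 had 1344 and 1356 against 1403 and 1401. These 2 genes did not pass the test, with log2 differences of -0.03 (SE 0.07) and 0.05 (SE 0.07). Of the signal of the listed alpha subunits per kb, Itga6 held 38.9% to 40.1% and Itga3 36.3% to 39.9%.

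Itga7, a further laminin-binding alpha subunit, had 1 to 7 reads in each library. Itgb4, which pairs with Itga6 in hemidesmosomes, was low, with values of 23.7 to 30.9. Per kb Itgb1 was 266 to 345 times as abundant as Itgb4.

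The subunits that recognise the RGD sequence of fibronectin and vitronectin were mainly Itgav and its partners. Itga5, the classical fibronectin receptor subunit, had 2 or 3 reads in every library, and Itga2b, the platelet subunit, had 13 to 24. Itgav held 13.9% and 11.6% of listed alpha subunit signal per kb in empty A and B, against 8.0% and 7.12% in Wnt5a A and B.

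The beta partners of Itgav did not pass the test. Itgb5 had values of 235.5 and 214 in empty A and B, against 220.3 and 193 in Wnt5a A and B. Itgb3 had values of 292 and 250.3 against 274.5 and 279. Both overlapped between the groups, with log2 differences of -0.12 (SE 0.11) and 0.03 (SE 0.10).

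Itgb8, the partner that presents latent TGF-beta, had values of 96.8 and 53.7 in empty A and B, against 48.4 and 52.8 in Wnt5a A and B. Empty library A alone was high, and the group difference in log2 was -0.51 (SE 0.26, limma adjusted p = 0.427). Itgb6 had 1 to 5 reads in each library.

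Itga4, which with Itgb1 binds VCAM1 and fibronectin, was the only alpha subunit with an unadjusted p under 0.05 that was higher with Wnt5a. It had values of 511 and 507 in empty A and B, against 620 and 728 in Wnt5a A and B. The groups did not overlap, but the log2 difference of 0.40 (SE 0.10) did not pass the test (limma adjusted p = 0.107). Its relative Itga9, a tenascin receptor, had values of 126 and 90.7 against 120.0 and 121.

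The collagen-binding alpha subunits that were listed were scarce next to the collagen transcripts. Itga10 had values of 38.7 to 53.0, Itga1 had 1 to 8 reads and Itga11 at most 1 read in any library. Itgae, a leukocyte subunit, was just inside the minimum at a mean of 10.1, with Col16a1 just outside at 9.71. Itgae was also the only described gene with a group mean under 10. Itgb1bp1, which binds the tail of Itgb1, and Itgb3bp, a centromere protein, had log2 differences of 0.03 and 0.18. Exons of Itgb1bp1 overlap those of Asap2 by 402 bases and of Cpsf3 by 196, and exons of Itgb3bp overlap those of Pgm1 by 398, all on the opposite strand, so these counts are less certain where counting did not use strand.

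Several of these genes varied within the empty group. The median absolute log2 difference between libraries A and B over the 37 genes was 0.24 in the empty and 0.12 in the Wnt5a group. Over all genes tested it was 0.13 and 0.11. The gap was wider in the empty than in the Wnt5a group for 20 of the 37 genes. That is near the share of all genes tested, 6876 of 12357. The genes with the widest gap in the empty group were Fn1 (-0.92, A minus B), Itgb8 (0.84) and Dcn (0.81). For Itgb8 and Fn1, empty library B lay near or within the Wnt5a values and empty library A away from them.

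The remaining 43 listed genes were under the minimum and were not tested. Of these, 21 had at most 3 reads in every library, and 29 had a mean value under 1. The minimum is a mean over both groups, and Itgae apart, each of the 37 genes described also reached it in each group. Symbols of the same pattern that are annotated in RefSeq but not analysed here number 12.

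Genes that make, join or read this matrix were taken from lists drawn up by function. Of 16 tested genes for collagen folding and cross-linking, limma called 1, which rose (6.25%, against 2.06% of all genes), and the median log2 difference was -0.08. By unadjusted p under 0.05, 2 were higher and 2 lower (25%, against 16.1% of all genes). The direction of the calls depended on the fit, with 2 higher and 5 lower under the replicate block and 2 higher and 6 lower with all 16 samples counted separately. Over all genes these fits called 17.0% and 35.4%. P3h3, a prolyl 3-hydroxylase family member, had values of 14.3 and 20.4 in empty A and B, against 43.2 and 38.7 in Wnt5a A and B. Its log2 difference was 1.21 (SE 0.22, limma adjusted p = 0.049). Of this list, however, edgeR called 0 genes and DESeq2 2, against 1.99% and 4.35% of all genes.

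Of 21 tested basement membrane and matrix partners, limma called 1, which rose (4.76%, against 2.06% of all genes), and the median was -0.07. By unadjusted p under 0.05, 2 were higher and 5 lower (33.3%, against 16.1% of all genes). DESeq2 called 1 higher and 3 lower, the replicate block 3 higher and 5 lower, and the fit to all 16 samples 2 higher and 7 lower. Over all genes these fits called 4.35%, 17.0% and 35.4%. Dag1, dystroglycan, a laminin receptor outside the integrin family, had values of 54.3 and 45.8 in empty A and B, against 354 and 327 in Wnt5a A and B, a log2 difference of 2.74 (SE 0.13, limma adjusted p = 0.00052). Dag1 lies on chromosome 9, the chromosome of Lamb2. The median log2 difference of that chromosome was -0.02 over 699 genes. Such a median does not describe a local stretch like that around Lamb2. Any link between Dag1 and Lamb2 was not tested. Of 24 tested integrin adhesion genes, which include the talin, kindlin and vinculin genes that tie integrin tails to actin, limma called 0, edgeR 0 and DESeq2 2. In this list 5 of 24 genes (20.8%) had an unadjusted limma p under 0.05, near the 16.1% of all genes, and the median was -0.10. By sign, 6 genes were higher and 18 lower, against 6262 and 6095 of all genes. The replicate block called 2 higher and 4 lower, and the fit to all 16 samples 4 higher and 9 lower. DESeq2 and these 2 fits called 4.35%, 17.0% and 35.4% of all genes.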

How the data were processed

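The authors deposited 1 file per sample with 1 signal value per gene, called normalized by the file name. TopHat, Bowtie, HTSeq and DESeq2 are named per the submitters' processing notes, without role or version, and the genome build is not given in the sources used here. Within each file the deposited signal is a multiple of 1 step for 100% of genes, which gave back whole reads (7526676 to 8859862 per sample); the floor of 3 reads covers counting error only. Whether counting used strand is not stated. The index of dispersion was 0.987 to 1.05 for 24 sample pairs within samples 1 to 4 or 5 to 8 and 5.23 to 5.44 for the 32 other pairs of a group, and such samples were averaged as 1 library.

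The comparison used limma 3.58.1 in R 4.3.3 (eBayes with trend) on log2(value + 1), which understates the change of low genes, with Benjamini-Hochberg adjustment over 12357 genes. Recovered reads were also tested with edgeR 4.0.16 (246 genes called) and DESeq2 1.42.0. Levels per kb use the longest GENCODE M21 transcript, chromosomes and promoter windows RefSeq (GRCm38.p6). Genes given in full were those with an adjusted p under 0.05 and the 2 most abundant of each class, and the others were added after their values were seen. Companion genes named were those called. The members and lists were chosen with earlier results of these data known. A member and a marker that are counted in the totals are not reported here. The fits were also run on simulated counts with known changes. Those counts held no difference shared by libraries of the same letter, so they do not show which fit is right here.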

Additional observations from a re-analysis of the deposited data

How the results depend on the processing

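Egfl6 and Col11a1 kept their direction and call under each alternative in which they were tested, at -1.24 to -1.03 for Egfl6 and 1.68 to 2.48 for Col11a1; with a minimum of 50, Col11a1 was not tested. The number of members called (3) was 13 with all 16 samples counted separately, 8 with DESeq2 and 8 with the replicate block, and 2 to 11 when 1 library was left out. Against 254, the number of genes called was 146 without the filter, 102 with a minimum of 50, 158 without the trend, 4377 with all 16 samples, 538 with DESeq2 (4.35%) and 138 to 1098 with 1 library left out, where the lone library is assumed to vary like the others. The replicate block, on numbers that the groups share but that no source ties to a batch, gave 2095 genes (17.0%). With only 2 numbers, the A minus B differences of the groups correlated at 0.44 across genes. It added Col6a5, Col8a1, Dcn, Itga4 and Lamc1, as did DESeq2. What causes these differences between settings was not tested.

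Col4a2 (0.0118) and Itgb1 (0.0085) reversed after quantile normalization, and Itga3 (-0.12) and Itgb3 (-0.14) with chromosome medians removed. With 1 library left out, the ranges that crossed 0 were -0.2155 to 0.0717 for Col18a1, -0.1985 to 0.3677 for Col4a1, -0.0505 to 0.0345 for Col4a2, -0.3721 to 0.0714 for Col5a3, -0.4835 to 0.0386 for Col6a1, -0.1511 to 0.0644 for Col9a2, -0.0726 to 0.0055 for Itga6, -0.0048 to 0.0555 for Itgb1bp1, -0.0770 to 0.1445 for Itgb3 and -0.2010 to 0.5794 for Lama3. Genes with under 60 reads in a library, such as Col11a1 in the empty group, have fold changes that counting error limits.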
